A study of Mus musculus with 12 samples.

Results

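The effect of deleting Hif1a that interstitial macrophages (IM) and nonclassical monocytes (NCM) of the mouse lung had in common was measured by RNA sequencing. All 12 libraries of the series entered 1 model, the deleted and control groups were compared within each cell type, and the effects in the 2 cell types were averaged with equal weight. Of 26608 gene rows, 14254 had enough counts to be tested, and 250 of them met the definition of a shared change. A gene was called shared when its averaged effect had a Benjamini-Hochberg adjusted p under 0.05 in edgeR's quasi-likelihood test and when its effect had the same sign and an unadjusted p under 0.05 in each cell type. Of the shared genes, 56 were higher and 194 were lower in the deleted libraries.

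The animals were C57Bl/6 mice in all 4 groups, and all had spent 3 weeks in hypoxia with a weekly dose of SU5416, an inhibitor of the VEGF receptor. The deleted groups carried Cx3cr1cre and Hif1α Δ/Δ, and the control groups carried Hif1α flox/flox without Cre. No normoxic or Cre-only group was analysed here, so an effect of Cre and an effect of the deletion cannot be told apart. Cre was driven by Cx3cr1, which is active in monocytes, macrophages and their relatives throughout the body, so the sorted cells had come from lungs in which other Cx3cr1-expressing cells could be deleted too. Each group had 3 libraries, each made from about 250 sorted cells. Libraries are named here by cell type and by the number in their labels. Values per library follow the order IM648, IM659 and IM660 (IM control), IM649, IM650 and IM661 (IM deleted), NCM648, NCM657 and NCM659 (NCM control), and NCM649, NCM650 and NCM661 (NCM deleted). The labels give neither age nor sex and do not say whether a number stands for 1 animal or a pool, so p-values measure the spread between these libraries, which may be technical.

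Hif1a encodes the oxygen-regulated subunit of HIF-1. When oxygen is low, this subunit escapes hydroxylation and degradation, pairs with ARNT and binds DNA at hypoxia response elements. Their core reads ACGTG or GCGTG, of which only ACGTG was searched for here. In macrophages and monocytes HIF-1 is known for raising the enzymes of glycolysis and for sustaining inflammatory cytokine production. SU5416 with hypoxia is a standard way to produce pulmonary hypertension in rodents.

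The libraries held between 5332600 and 14099509 gene counts. Reads that the authors' counting placed in no annotated exon, as a share of these reads and the gene counts together, averaged 42 ± 3.06% (SD, n = 3) in the IM control group. The mean was 65.2 ± 5.48% for IM deleted, 61.7 ± 4.54% for NCM control and 66.6 ± 9.91% for NCM deleted. The difference in IM had p = 0.1 by exact permutation (two-sided), the smallest p that 3 against 3 libraries allow, and the one in NCM had p = 0.4. NCM661 stood apart from the other NCM deleted libraries. It had the lowest share of such reads in its cell type (55.1%) and the highest summed level of 24 endothelial markers (13997 CPM; CPM are counts scaled to a common library size with TMM factors). The defining markers matched the labelled cells. C1qa was between 319.7 and 924 CPM in the IM libraries and between 1.65 and 98 CPM in NCM, whereas Treml4 was between 1.89 and 7.01 CPM in IM and between 93.6 and 417 CPM in NCM.

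Hif1a itself (GRCm38 chr12:73901375-73947530) was counted in every library. Its level was 231, 212 and 243 CPM in IM control, 192, 204 and 200 CPM in IM deleted, 246, 221 and 207 CPM in NCM control and 154, 212 and 150.3 CPM in NCM deleted. The IM groups did not overlap and the NCM groups did. The averaged log2 fold change was -0.29 ± 0.15 (SE) with an adjusted p of 0.342, so it did not pass, and gene-level counts do not measure the excision of an exon. Cx3cr1, the chemokine receptor gene that drives Cre, had an averaged log2 fold change of -0.91 ± 0.30 and an adjusted p of 0.126.

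The averaged effect passed the test for 122 genes that were higher (0.856% of those tested) and 246 that were lower (1.73%) in the deleted libraries, 368 in all (2.58%). The 56 shared higher genes were 0.393% and the 194 shared lower genes 1.36% of those tested. Shared higher genes had a median averaged fold change of 2.82 (1.66 to 42), and shared lower genes were lower by a median of 1.99-fold (1.5 to 4.02). The 3 deleted libraries lay outside the range of the 3 control libraries in both cell types for 41 of the shared higher and 178 of the shared lower genes. Over all genes tested, 157 (1.1%) were without overlap and higher in both cell types, 501 (3.51%) without overlap and lower in both, and 172 (1.21%) without overlap in opposite directions. The effect was larger in NCM than in IM for 127 of the 194 shared lower and 33 of the 56 shared higher genes. The same held for 8547 of all 14254 genes tested, so it was not particular to the shared genes. Across all genes tested, the log2 fold changes in IM and in NCM had a Pearson correlation of 0.178. The sign was the same in both cell types for 8351 genes (58.6%). The test of the difference between the cell types called 0 genes (0% of those tested) in edgeR, with 1271 at an unadjusted p under 0.05, 62 in DESeq2 and 2 in limma voom.

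**Figure D1:**
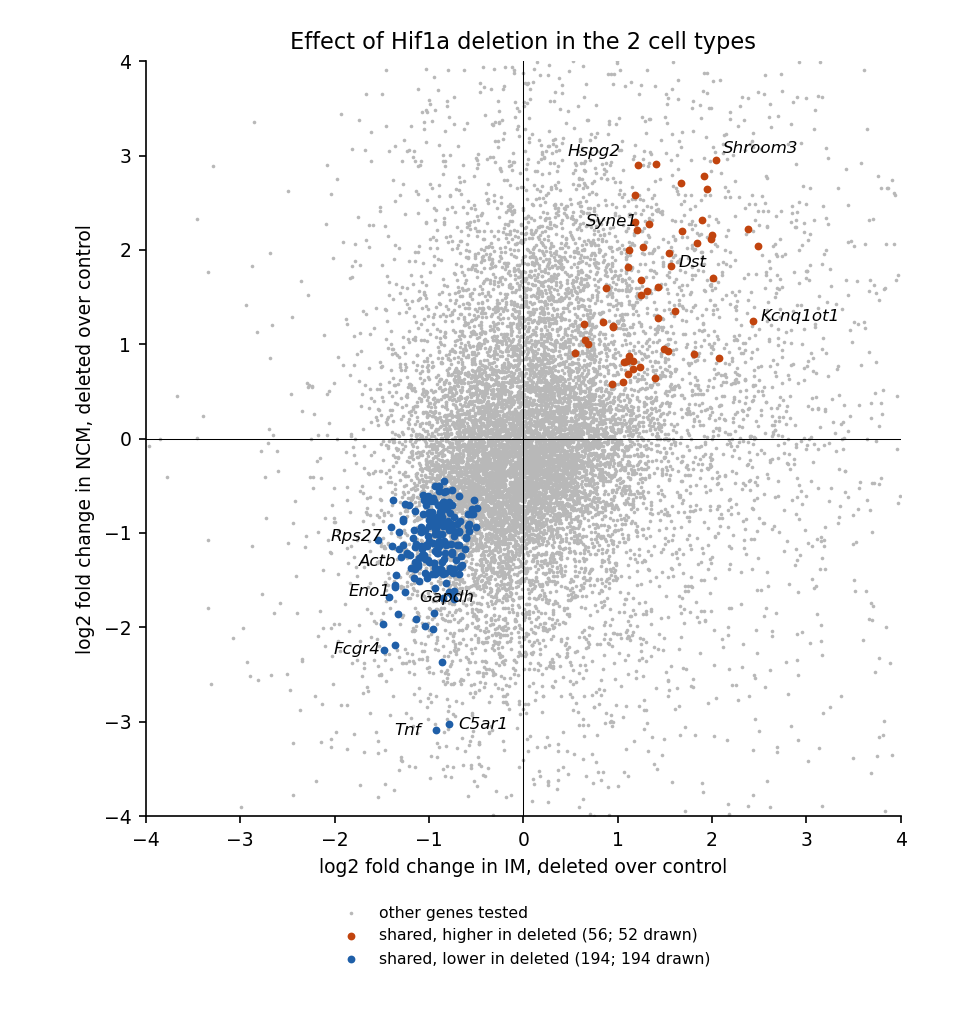
Each point is a gene, with its log2 fold change of deleted over control in IM (horizontal axis) and in NCM (vertical axis) from the edgeR fit of 12 libraries. The 194 shared lower genes (blue) lie in the lower left and the 56 shared higher genes (red) in the upper right, as the definition requires, and 4 shared higher genes and 762 other genes lie outside the drawn range.

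Calls depended on single libraries and on the scaling. Without IM650 the averaged test called 17 higher and 51 lower genes, and without NCM661 it called 301 and 701. The numbers of higher and lower calls were 30 and 103 without IM648, 43 and 101 without IM659, 40 and 99 without IM660, and 28 and 77 without IM649. They were 34 and 95 without NCM657. Without IM661 there were 195 higher calls, without NCM648 there were 66, and without NCM649 there were 375 lower calls. The number of shared genes ranged from 13 higher and 43 lower without IM650 to 145 and 290 without NCM661. With the size factors of DESeq2 in place of TMM the split was 165 higher and 181 lower. With the share of reads in no annotated exon as a covariate, 4 higher and 27 lower genes passed. All 250 shared genes, which were chosen for their sign in these libraries, kept it in those of the 29 alternative fits that tested them. Of these genes, 15 higher and 48 lower ones passed in every fit without 1 library. A stricter rule, in which the larger p of the 2 cell types is adjusted over all genes, called 0 genes, with a lowest adjusted p of 0.566. Alone, IM had 41 genes (0.288%) and NCM 60 genes (0.421%) past an adjusted p of 0.05, and the rule that both cell types pass called 0 higher genes and 2 lower genes, Actb and Gnb2l1.

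Glycolysis was represented by 22 measured genes, of which 3 fell, 0 rose and 19 did not pass. All 3 were shared. The count was 6 without NCM649, 7 without NCM661 and 3 or 4 without any other 1 library. The list's median log2 fold change was -0.58 averaged, -0.57 in IM and -0.82 in NCM, against 0.01, 0.07 and -0.10 over all genes tested. The genes were Eno1, Gapdh and Gpi1, which encode enolase, glyceraldehyde-3-phosphate dehydrogenase and glucose-6-phosphate isomerase.

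Eno1 (chr4:150236721-150248879) was at 254, 296 and 310.5 CPM in IM control, 107, 95.0 and 159.7 CPM in IM deleted, 319, 369 and 307 CPM in NCM control and 88.4, 134 and 101 CPM in NCM deleted. Every deleted library was below every control library. Its averaged log2 fold change was -1.44 ± 0.18 (adjusted p = 0.00275). Gapdh was at 346, 338 and 389.9 CPM in IM control against 178, 168 and 138 CPM in IM deleted, and at 272, 435 and 288 CPM in NCM control against 123, 125 and 135 CPM in NCM deleted. The groups were separate in both cell types, and the averaged log2 fold change was -1.26 ± 0.17 (adjusted p = 0.00276). Gpi1 was at 268, 323 and 285 CPM in IM control against 154, 122 and 159 CPM in IM deleted, and at 254, 234 and 231 CPM in NCM control against 96.8, 96.7 and 157 CPM in NCM deleted, a change of -1.02 ± 0.17 (adjusted p = 0.00843). All 3 passed in each fit without 1 library and none of the 3 with the covariate. Gapdh and Eno1 have many processed pseudogene copies, and how reads with several alignments were counted is not given in the sources used here, so their levels are uncertain.

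Other glycolytic genes that HIF-1 is known to raise did not pass. Pgk1 (phosphoglycerate kinase) had an averaged log2 fold change of -0.91 ± 0.24 with an adjusted p of 0.0553, and its groups did not overlap in either cell type. Ldha (lactate dehydrogenase A) had a value of -0.69 ± 0.20 with an adjusted p of 0.0771. Slc2a1, the glucose transporter GLUT1, was at 27.5, 29.4 and 20.3 CPM in IM control and 25.2, 28.4 and 31.0 CPM in IM deleted, which overlapped, and at 45.3, 25 and 36.9 CPM in NCM control and 1.81, 12.2 and 18.7 CPM in NCM deleted, which did not. Its averaged value of -0.79 ± 0.44 had an adjusted p of 0.385. Ldha and Slc2a1 were chosen after their values were seen.

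Of 6 measured enzymes of the pentose phosphate pathway, a list drawn up after the values were seen, 3 fell and were shared: Tkt (transketolase), Pgd and Taldo1. The other members did not pass. Tkt was at 174, 220.2 and 172 CPM in IM control and 83.2, 85.7 and 87.4 CPM in IM deleted, and its averaged log2 fold change was -1.14 ± 0.18 (adjusted p = 0.00632). The NCM effect of Tkt was -1.15, so the 2 cell types differed by 0.00.

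Of 31 measured HIF targets outside glycolysis, 4 fell, 0 rose and 27 did not pass, and the 4 were shared. The list's median was -0.25. Lgals3 encodes galectin-3, a lectin of macrophages. It was at 486, 555 and 582 CPM in IM control, 278, 209.6 and 359.6 CPM in IM deleted, 139.6, 183 and 181 CPM in NCM control and 76.4, 47.0 and 44.3 CPM in NCM deleted. The groups were separate in both cell types, and the averaged log2 fold change was -1.26 ± 0.19 (adjusted p = 0.00557). Cxcr4, the receptor of the chemokine CXCL12, was at 443, 324 and 435 CPM against 180.5, 128 and 269.7 CPM in IM and at 741, 465 and 442 CPM against 261, 272 and 167 CPM in NCM. The change was -1.14 ± 0.22 (adjusted p = 0.0135), and the adjusted p was 0.0505 without IM649 and 0.0536 without IM650. Anxa2 (annexin A2, a membrane-binding protein) changed by -0.80 ± 0.18 (adjusted p = 0.0268) and Bhlhe40 (a hypoxia-inducible transcriptional repressor) by -0.72 ± 0.16 (adjusted p = 0.0316). Anxa2 and Bhlhe40 each passed in 5 of the 12 fits without 1 library, and their highest adjusted p there was 0.091 without NCM657 and 0.12 without IM649. The list's count was 1 without IM649 or IM650, 2 without IM648, IM659, IM660 or NCM657, and 6 without NCM649. Vegfa, the endothelial growth factor gene, chosen after its values were seen, had a positive value of 0.81 ± 0.32 that did not pass (adjusted p = 0.198).

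Promoters of 2 shared lower genes that hold ACGTG, and that of Eno1, which holds no ACGTG in this window, are shown here. They were picked because their genes fell in both cell types. They are RefSeq sequences of GRCm38.p6, the 250 bases before the first listed transcript start, 5′ to 3′ on the strand of the gene, and capitals mark ACGTG on either strand, which reads CACGT on the opposite one. Sap30 is on the minus strand at chr8:57487861-57488110, Anxa2 on the plus strand at chr9:69453433-69453682 and Eno1 on the plus strand at chr4:150236458-150236707.
Sap30: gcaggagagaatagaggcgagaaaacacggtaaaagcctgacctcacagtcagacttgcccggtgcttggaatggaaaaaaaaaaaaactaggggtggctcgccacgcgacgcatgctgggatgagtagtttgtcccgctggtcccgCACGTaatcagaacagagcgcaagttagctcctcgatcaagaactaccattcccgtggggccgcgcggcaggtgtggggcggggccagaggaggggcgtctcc
Anxa2: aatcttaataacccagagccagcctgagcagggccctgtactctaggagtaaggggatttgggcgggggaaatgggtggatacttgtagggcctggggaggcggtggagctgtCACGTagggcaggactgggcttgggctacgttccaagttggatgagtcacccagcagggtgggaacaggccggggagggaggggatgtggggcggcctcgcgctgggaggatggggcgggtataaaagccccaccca
Eno1: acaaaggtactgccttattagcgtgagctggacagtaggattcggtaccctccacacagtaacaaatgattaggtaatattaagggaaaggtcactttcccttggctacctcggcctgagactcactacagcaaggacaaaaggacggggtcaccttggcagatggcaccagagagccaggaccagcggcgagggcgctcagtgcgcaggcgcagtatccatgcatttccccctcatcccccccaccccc
GCGTG was not searched for or marked on either strand, and the windows of Sap30 and Eno1 hold it. ACGTG on either strand was in the 250 bases of 16.6% of the 27025 promoters in the table. It also lies within CACGTG, the E-box, which was in 6.05% of them. Of the glycolysis list, 21 members had a promoter entry and 8 (38.1%) held ACGTG, but none of Eno1, Gapdh and Gpi1 did. Of the 56 shared higher genes, 45 had an entry and 4 (8.89%) held it. Of the shared lower genes 78.4% and of all genes tested 74.9% had an entry, which is under the 80% needed, so the same count is void for both. The 16.6% therefore includes promoters of genes not tested here and is no share of the tested genes.

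Sap30 encodes a subunit of the SIN3 histone deacetylase complex. It was at 76.8, 56.4 and 41.5 CPM in IM control, 19.6, 21.7 and 20.8 CPM in IM deleted, 39.5, 47.3 and 43.1 CPM in NCM control and 15.3, 5.14 and 12.7 CPM in NCM deleted. Deleted libraries were below the controls in both cell types, with an averaged log2 fold change of -1.73 ± 0.32 (adjusted p = 0.0121). The adjusted p was 0.0525 without IM648 and 0.0527 without IM650.

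Transcripts of the cytosolic ribosome had the most shared lower genes of the lists examined. Of 44 measured members of a list of ribosomal proteins, 35 fell, 0 rose and 9 did not pass, and 34 of the 35 were shared. All 44 had a negative effect in both cell types, as did 4257 of all 14254 genes tested. The list's median log2 fold change was -0.96 averaged, -0.98 in IM and -0.93 in NCM. The count was 11 without IM650, 13 without IM649, 19 without IM660 or NCM657, and 21 without IM648 or IM659, with medians between -1.02 and -0.89 in the fits without 1 library. With the covariate the median was -0.68 and 0 members passed. Over all 82 measured ribosomal protein genes, a list drawn up after the values were seen, 63 fell and 61 were shared. Most ribosomal protein genes have processed pseudogenes, so their counts are uncertain in the way given for Gapdh.

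Rps27 was at 223, 250.4 and 238 CPM in IM control, 109, 88.9 and 72.8 CPM in IM deleted, 275, 314 and 264 CPM in NCM control and 89.6, 138 and 159.9 CPM in NCM deleted. Its groups were separate in both cell types, and the averaged log2 fold change was -1.27 ± 0.18 (adjusted p = 0.00395). Rpl12 changed by -1.46 ± 0.24 (adjusted p = 0.00634), Rps3 by -1.16 ± 0.17 (adjusted p = 0.00504) and Rps23 by -1.08 ± 0.16 (adjusted p = 0.00504), and each of the 3 was without overlap in both cell types. Gnb2l1 encodes RACK1, a scaffold protein on the small ribosomal subunit. It was at 227, 211 and 199 CPM against 80.8, 63.4 and 103 CPM in IM, and at 196, 196 and 158 CPM against 48.8, 58.3 and 77.5 CPM in NCM, a change of -1.47 ± 0.19 (adjusted p = 0.00275). Gnb2l1 passed its own adjusted p in IM (0.0447) and in NCM (0.026). Rpl13, with a change of -1.55 ± 0.38 (adjusted p = 0.0417), passed in 3 of the 12 fits without 1 library, and its adjusted p was 0.147 without IM650. Eef1a1, the translation elongation factor, was named after its values were seen. It fell by 1.06 ± 0.16 on the log2 scale (adjusted p = 0.00504), and 3 of 5 measured elongation factor genes were shared.

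Many transcripts of the translation machinery start within a run of pyrimidines, the terminal oligopyrimidine tract through which the mTOR pathway is known to control their translation. Start windows of 7 shared lower genes were read, and 3 held such a tract (Rps27, Gnb2l1 and Eef1a1) while 4 did not (Rpl12, Rps3, Rps23 and Rpl13). The 3 with a tract are shown beside Rps3, 1 of the 4 without. The 30 bases run from 10 before to 20 after the first RefSeq start, 5′ to 3′ on the strand of the gene, with capitals for a C followed by at least 6 further C or T. Rps27 is at chr3:90213629-90213658 (minus strand), Gnb2l1 at chr11:48800350-48800379 (plus), Eef1a1 at chr9:78481705-78481734 (minus) and Rps3 at chr7:99483690-99483719 (minus).
Rps27: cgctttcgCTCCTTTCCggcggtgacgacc
Gnb2l1: gccgCTCTTTCTTTTTCTCCacagggtcgt
Eef1a1: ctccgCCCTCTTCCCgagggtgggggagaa
Rps3: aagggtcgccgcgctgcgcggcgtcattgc
Such a run was in the same window of 13.5% of the 27025 promoters. Of the 44 ribosomal protein genes 75% had an entry, so their share is not given. A start site that is off by a few bases moves the tract out of the window, so no match says only that these letters are not in it.

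Actin and several of its regulators were among the shared lower genes. Of 31 measured members of the list of leukocyte actin regulators, 18 fell, 0 rose and 13 did not pass, 16 were shared, and the median was -0.86 averaged, -0.76 in IM and -0.93 in NCM. The count was 5 without IM650, 9 without IM649 or NCM657, 10 without IM648 or IM660, and 11 without IM659. Actb (beta-actin, chr5:142903115-142906754) was at 7773, 7439 and 8988 CPM in IM control, 3127, 3076 and 4361 CPM in IM deleted, 6373, 6628 and 4526 CPM in NCM control and 2281, 2619 and 2547 CPM in NCM deleted. No deleted library reached a control library of its cell type. The change was -1.20 ± 0.23 in IM (adjusted p = 0.0447), -1.23 ± 0.23 in NCM (adjusted p = 0.0325) and -1.22 ± 0.16 averaged (adjusted p = 0.00276).

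Actg1 (gamma-actin) changed by -0.94 ± 0.15 (adjusted p = 0.006) and Rhoa, the small GTPase of stress fibres, by -0.87 ± 0.14 (adjusted p = 0.00632). Rac2 is the Rac GTPase of blood cells that drives their migration and oxidase activity. It was at 64.8, 80.1 and 73.0 CPM in IM control, 28.4, 27.6 and 43 CPM in IM deleted, 149, 138 and 112 CPM in NCM control and 32.0, 35.9 and 38 CPM in NCM deleted. Its groups were separate, and it changed by -1.53 ± 0.21 (adjusted p = 0.00282). Actb, Actg1, Rhoa and Rac2 passed in each fit without 1 library, and none of them passed with the covariate.

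Of 35 measured members of the list of lysosomal enzymes and membrane proteins, 11 fell, 0 rose and 24 did not pass, and 10 were shared. The median was -0.80, and 31 had a negative effect in both cell types, against 4257 of all 14254 genes tested. The count was 2 without IM650, 5 without IM648, IM649 or NCM657, 6 without IM659 or IM660, and 18 without NCM649 or NCM661. Ctss (cathepsin S, a protease of antigen processing) was at 2699, 2356 and 3347 CPM in IM control, 1349.7, 1236 and 1588 CPM in IM deleted, 1308, 1027 and 922 CPM in NCM control and 540.3, 539.8 and 257 CPM in NCM deleted. Deleted libraries were below controls in both cell types, the change was -1.15 ± 0.20 (adjusted p = 0.00918), and it also passed with the covariate (adjusted p = 0.033). Ctsa (the protective protein cathepsin A) changed by -1.0 ± 0.16 (adjusted p = 0.00634). Man2b1 (lysosomal alpha-mannosidase) changed by -1.06 ± 0.20 and Psap (the precursor of the saposins) by -1.02 ± 0.19, both with an adjusted p of 0.0135, which was 0.0572 for each without IM650 and 0.0515 for Psap without IM649. Cst3, the secreted inhibitor of cysteine cathepsins, changed by -1.59 ± 0.29 (adjusted p = 0.0116), with an adjusted p of 0.0512 without IM650.

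Some inflammatory genes were among the shared lower ones. Of 34 measured members of the list of cytokines, chemokines and NF-kB genes, 6 fell, 0 rose and 28 did not pass, and 4 were shared. The median was -0.84 averaged, -0.15 in IM and -1.44 in NCM, so the list's median in IM was near that of all genes. The count was 4 without IM648, IM659 or IM650, 11 without NCM661, and 9 without IM661, NCM648 or NCM650. Tnf, the gene of tumour necrosis factor (chr17:35199381-35202007), was at 412, 323 and 242 CPM in IM control, 153, 126 and 237 CPM in IM deleted, 119, 98 and 95.6 CPM in NCM control and 16.8, 9.55 and 10.4 CPM in NCM deleted. IM661 was just below the lowest IM control library, and the NCM groups lay far apart. The change was -0.92 ± 0.31 in IM and -3.09 ± 0.33 in NCM, and -2.01 ± 0.22 averaged (adjusted p = 0.00129). The difference between the cell types, 2.17, had an unadjusted p of 0.000163 and an adjusted p of 0.279.

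Ccl3, the chemokine MIP-1 alpha, was at 312, 354 and 217 CPM in IM control, 180.0, 125 and 182 CPM in IM deleted, 125, 156 and 155 CPM in NCM control and 18.3, 40.3 and 25.5 CPM in NCM deleted. The groups did not overlap, and the averaged change was -1.61 ± 0.22 (adjusted p = 0.00282). Ccl9, another chemokine, changed by -1.20 ± 0.21 (adjusted p = 0.0101). Alox5ap encodes the protein that presents arachidonic acid to 5-lipoxygenase in leukotriene synthesis. It was at 41.4, 50.8 and 58.8 CPM against 23.6, 22.1 and 27.9 CPM in IM and at 76.9, 64.3 and 85.4 CPM against 17.5, 23.4 and 16.5 CPM in NCM, a change of -1.51 ± 0.24 (adjusted p = 0.00634). Tnf, Ccl3, Ccl9 and Alox5ap passed in each fit without 1 library, and with the covariate Tnf had an adjusted p of 0.0513.

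Of 32 measured innate receptor genes, 7 fell, 0 rose and 25 did not pass, 4 were shared, and the median was -0.81. The count was 1 without IM650, 4 without IM648, IM660, IM649 or NCM657, and 11 without NCM649. C5ar1, the receptor of the complement fragment C5a (chr7:16246743-16259540), had the lowest p of all genes. It was at 339, 326 and 311 CPM in IM control, 177, 183 and 206 CPM in IM deleted, 111, 139.6 and 98.1 CPM in NCM control and 15.3, 10.6 and 16.9 CPM in NCM deleted. Its groups were separate in both cell types, and the change was -0.79 ± 0.24 in IM, -3.02 ± 0.26 in NCM and -1.91 ± 0.18 averaged (adjusted p = 0.000209). The effect differed by 2.24 between the cell types, with an unadjusted p of 9.72e-06 and an adjusted p of 0.139. C5ar1 also passed with the covariate (adjusted p = 0.0353).

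Fcgr4, an activating receptor for immunoglobulin G, was at 29.4, 25.2 and 17.1 CPM in IM control, 14.5, 6.58 and 6.77 CPM in IM deleted, 236, 108 and 69.5 CPM in NCM control and 35.5, 31.6 and 24.0 CPM in NCM deleted. The groups did not overlap, and the change was -1.77 ± 0.33 (adjusted p = 0.0135). Fcgr3, another such receptor, changed by -1.17 ± 0.22 (adjusted p = 0.0135) and Fcer1g, the common gamma chain through which these receptors signal, by -1.15 ± 0.23 (adjusted p = 0.0161). Without IM650 the adjusted p was 0.0558 for Fcgr4, 0.057 for Fcgr3 and 0.0601 for Fcer1g. With the covariate Fcer1g had an adjusted p of 0.0353. Unc119, a trafficking chaperone of lipidated proteins, changed by -1.86 ± 0.37 (adjusted p = 0.0172) and passed in 6 of the 12 fits without 1 library, with an adjusted p of 0.0728 without IM650.

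**Figure D2:**
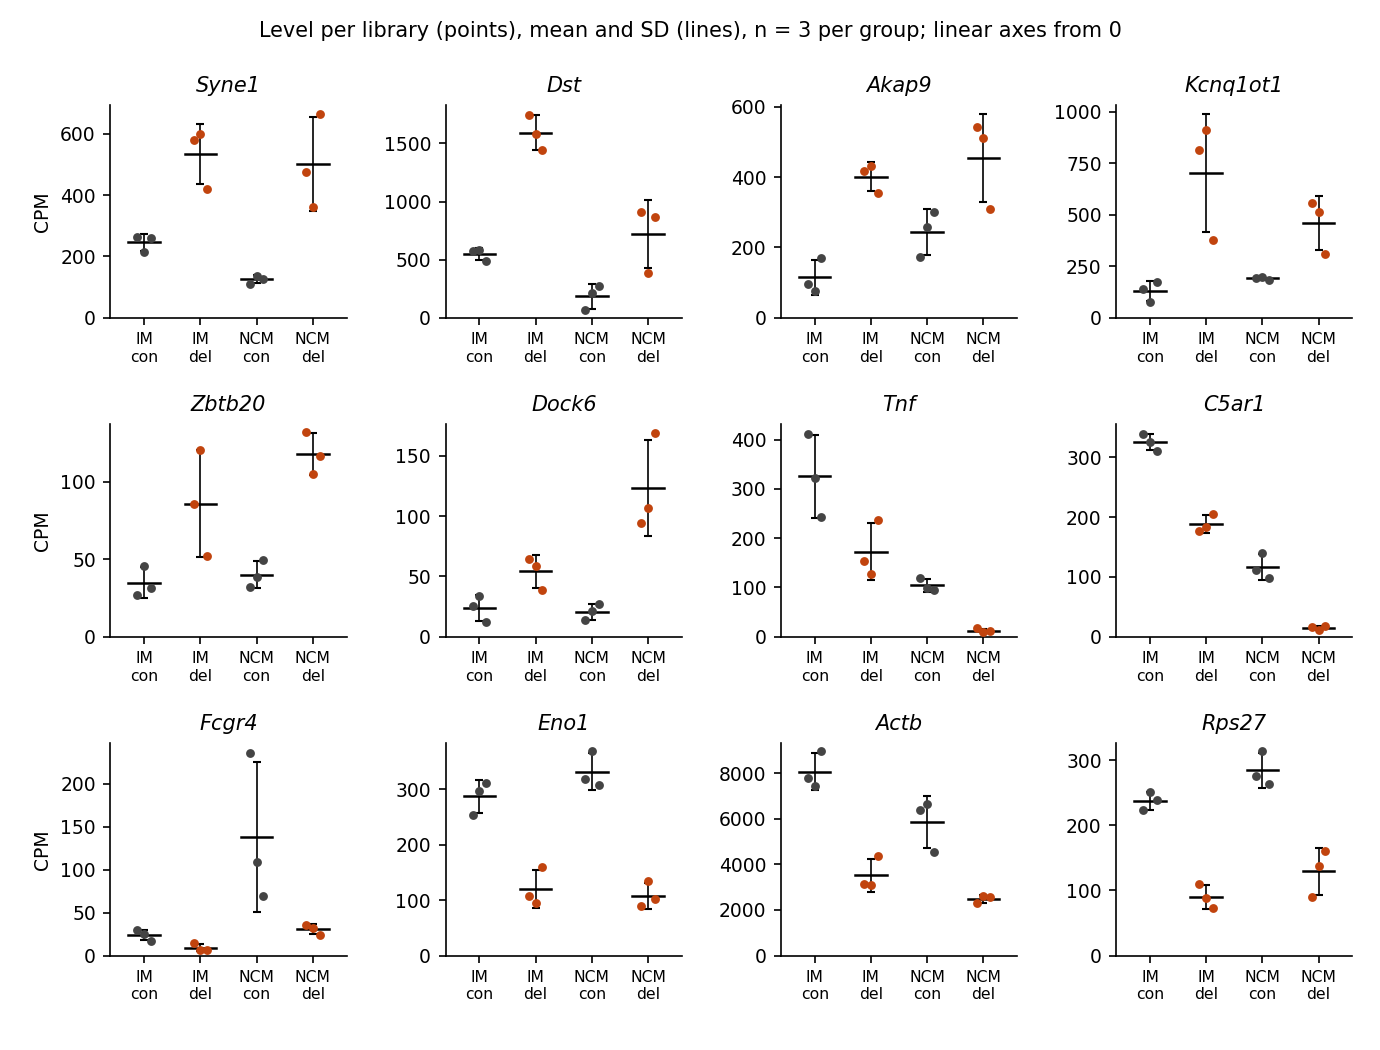
Points are CPM of single libraries for 12 genes in IM and NCM, control (con, grey) and deleted (del, red), with the mean and SD of n = 3 as lines and linear axes from 0. The 6 higher genes (Syne1 to Dock6) and 6 lower genes (Tnf to Rps27) are without overlap between genotypes in both cell types, and Tnf and C5ar1 are below 20 CPM in every NCM deleted library.

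Of 43 measured members of the oxidative phosphorylation list, 3 fell, 0 rose and 40 did not pass, 2 (Cox4i1 and Atp5a1) were shared, and the median was -0.72. Cox4i1, a subunit of cytochrome c oxidase, changed by -1.04 ± 0.24 (adjusted p = 0.0332). The count of 3 was 0 without any 1 of IM648, IM659, IM660, IM649, IM650, NCM657 and NCM659, and 8 without NCM661. None of 36 proteasome genes passed in edgeR, with 8 at an unadjusted p under 0.05 and a median of -0.52.

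Of 28 immediate early and stress genes, 4 fell and 0 rose, and all 4 were shared: Dusp1, Hspa8, Klf6 and Junb. Junb, a subunit of AP-1, was at 1267, 1087 and 959 CPM in IM control, 543, 513 and 974 CPM in IM deleted, 351, 455 and 379 CPM in NCM control and 104, 184 and 252 CPM in NCM deleted. The IM groups overlapped through IM661, the NCM groups did not, and the change was -0.92 ± 0.22 (adjusted p = 0.0409). The 4 calls were 0 without any 1 IM control library, IM649 or IM650, 1 without NCM648, NCM657 or NCM659, 2 without NCM649 and 7 without NCM661. In the MHC class II list 1 of 10 members fell, Cd74, the invariant chain. Its change was -0.90 ± 0.23 on the log2 scale (adjusted p = 0.0496). The list's median was -0.90, and it lay between -1.09 and -0.46 in the fits without 1 library. The median was -1.55 within lanes 5 and 6, but it was positive within lanes 7 and 8 (0.31) and with the covariate (0.41). In the cell cycle list 1 of 28 members fell, Mcm6, a subunit of the replicative helicase, by 0.94 ± 0.24 (adjusted p = 0.0473). Cd74 and Mcm6 each passed in 3 of the 12 fits without 1 library, with an adjusted p of 0.16 and 0.161 without IM650. Of 32 interferon response genes, 1 rose (Slfn5) and 1 fell (Slfn2) on average, and neither was shared.

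Of 33 measured members of a list of large cytoskeletal and scaffold proteins, 11 rose, 0 fell and 22 did not pass. The 8 shared ones were part of the 56 shared higher genes. The median was 0.84 averaged, 0.92 in IM and 0.57 in NCM. The count was between 7 (without IM650) and 14 (without IM661 or NCM661) in the fits without 1 library, and 2 with the covariate.

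Syne1 encodes nesprin-1, which ties the nucleus to actin (chr10:5020917-5551482). It was at 264, 214 and 260.2 CPM in IM control, 579, 601 and 421 CPM in IM deleted, 111, 137 and 127 CPM in NCM control and 477, 362 and 667 CPM in NCM deleted. Every deleted library was above every control library of its cell type, the change was 1.1 ± 0.25 in IM and 2.0 ± 0.26 in NCM, and the averaged value was 1.56 ± 0.18 (adjusted p = 0.00144, and 0.0236 with the covariate). Dst (dystonin, a linker of cytoskeletal filaments, chr1:33908225-34308661) was at 571, 585 and 485 CPM in IM control, 1747, 1582 and 1448 CPM in IM deleted, 63.1, 213 and 276 CPM in NCM control and 907, 381 and 869.7 CPM in NCM deleted. Its groups were separate as well, with an averaged change of 1.75 ± 0.30 (adjusted p = 0.00876).

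Akap9 encodes a scaffold of the Golgi and the centrosome. It was at 97, 75.7 and 170.1 CPM in IM control, 418, 430.4 and 355 CPM in IM deleted, 172, 259 and 301 CPM in NCM control and 541, 510.3 and 310.3 CPM in NCM deleted. NCM661 was the lowest NCM deleted library and just above the highest control, and the averaged change was 1.35 ± 0.23 (adjusted p = 0.00843). Syne2, the gene of nesprin-2, named after its values were seen, had a change of 1.23 ± 0.22 (adjusted p = 0.0109), with overlap in NCM. Shroom3, an actin-binding regulator of cell shape, was at 14.7, 10.1 and 9.75 CPM against 53.7, 75.9 and 12.7 CPM in IM and at 10.2, 7.34 and 20.1 CPM against 127, 67.2 and 97.5 CPM in NCM. It overlapped in IM through IM661, and its averaged change was 2.50 ± 0.41 (adjusted p = 0.00735).

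Guanine nucleotide exchange factors of small GTPases were among the shared higher genes. Dock6 was at 25.4, 33.8 and 11.8 CPM in IM control, 64.6, 58.9 and 38.4 CPM in IM deleted, 13.7, 20.8 and 27 CPM in NCM control and 94.4, 107 and 169 CPM in NCM deleted. The groups did not overlap, and the change was 1.89 ± 0.30 (adjusted p = 0.00634, and 0.0485 with the covariate). Of the 10 measured DOCK genes, a list drawn up after the values were seen, 3 (Dock1, Dock4 and Dock6) were shared. Kalrn (kalirin, an exchange factor best known from neurons) had a change of 2.08 ± 0.42 (adjusted p = 0.0172) at levels between 6.36 and 79.7 CPM. Kalrn passed in 7 of the 12 fits without 1 library, with an adjusted p of 0.0717 without IM650.

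The other shared higher genes named here had varied roles. Their effects were among the largest only of shared higher genes with mean log2 CPM of at least 4 and no overlap in either cell type. Larger shared effects outside these limits included that of Nckap5, at 2.35. Zbtb20, a zinc finger repressor, was at 26.7, 45.9 and 31.3 CPM in IM control, 85.6, 120.4 and 51.8 CPM in IM deleted, 32.3, 38.2 and 49.4 CPM in NCM control and 132, 105 and 117 CPM in NCM deleted. It was without overlap in both cell types, with a change of 1.44 ± 0.25 (adjusted p = 0.00918). Zcchc14, a zinc finger protein, had a change of 1.71 ± 0.31 (adjusted p = 0.0102). Zbtb20 and Zcchc14 passed in each fit without 1 library.

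Fam196a had a change of 2.26 ± 0.45 (adjusted p = 0.0153), which was lost without IM650 (0.0689) and NCM657 (0.0541). Nbea (neurobeachin, a vesicle trafficking protein) had a change of 2.1 ± 0.45 (adjusted p = 0.0222) and passed in 7 of the 12 fits. Atxn1 (ataxin-1, a transcriptional corepressor) had a change of 1.65 ± 0.40 (adjusted p = 0.0402) and passed in 4 of them. Dnaja4, a cochaperone, had a change of 1.46 ± 0.36 (adjusted p = 0.0417) and passed in 3 of them. Without IM650 the adjusted p was 0.0783 for Nbea, 0.11 for Atxn1 and 0.165 for Dnaja4.

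Kcnq1ot1 is a long RNA that stays in the nucleus and silences imprinted genes around Kcnq1 (chr7:143203458-143296549). It was at 140.1, 77.5 and 172 CPM in IM control, 817, 913 and 379 CPM in IM deleted, 194, 199.6 and 185 CPM in NCM control and 555, 512 and 308 CPM in NCM deleted. Deleted libraries were above controls in both cell types, with a change of 1.84 ± 0.25 (adjusted p = 0.00285). It runs antisense to Kcnq1 and the strand setting of the counting is not given in the sources used here, so reads of the 2 genes cannot be told apart. Kcnq1ot1 was the only shared gene among 9 measured nuclear RNAs, of which 3 rose on average. The list's median was 2.63 averaged, 2.84 in IM and 1.25 in NCM. The values of all 3 genes that rose lay below 2.63, so this median was set by members that did not pass. Among those, Xist was at or below 2.76 CPM in every library. Malat1 and Neat1 rose on average (1.0 ± 0.20 with an adjusted p of 0.0183, and 1.64 ± 0.27 with 0.00735), with effects of 1.68 and 2.83 in IM and of 0.32 and 0.45 in NCM, where their groups overlapped. The adjusted p of Malat1 was 0.0569 without IM650 and 0.0604 without NCM657.

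Basement membrane and matrix genes rose on average for 3 of 32 measured members, and 1 of the 3, Hspg2, was shared. The median was 1.11 averaged, 0.48 in IM and 1.62 in NCM, and the count was 1 without any 1 of IM648, IM659, IM660, IM649, IM650, NCM657 and NCM650, 6 without IM661, 5 without NCM649 and 7 without NCM659. Hspg2 encodes perlecan, a proteoglycan of basement membranes. It was at 67.0, 63.8 and 31.1 CPM in IM control, 127, 215 and 34.1 CPM in IM deleted, 19, 37.9 and 61.1 CPM in NCM control and 355, 242 and 283 CPM in NCM deleted. The IM groups overlapped through IM661 and the NCM groups lay apart, with an averaged change of 2.06 ± 0.39 (adjusted p = 0.0135).

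The summed level of 24 endothelial markers moved in the same direction in NCM, at 1365, 2487 and 4571 CPM in control and 6691, 5761 and 13997 CPM in deleted libraries. In IM it was at 3077, 4426 and 1534 CPM in control and 3655, 5664 and 1529 CPM in deleted libraries, which overlapped, and IM661 was lowest in IM for these markers as for Hspg2 among the deleted libraries. No endothelial marker passed the averaged test in edgeR, 11 had an unadjusted p under 0.05, and 23 of 24 had a positive averaged effect with a median of 0.92. The part of endothelial RNA in the rise of Hspg2 and other matrix genes was not tested. Fewer cells of a type and less RNA per cell cannot be told apart in these pools.

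Of 34 measured chromatin and transcription regulators 4 rose on average (Mll1, Baz2b, Huwe1 and Nsd1), 0 were shared, and the median was 0.73 in IM and 0.05 in NCM. The 4 calls were 0 without any 1 of IM648, IM659, IM649, IM650 and NCM657, 1 without IM660, NCM648 or NCM659, 2 without NCM650 and 17 without NCM661.

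**Figure D3:**
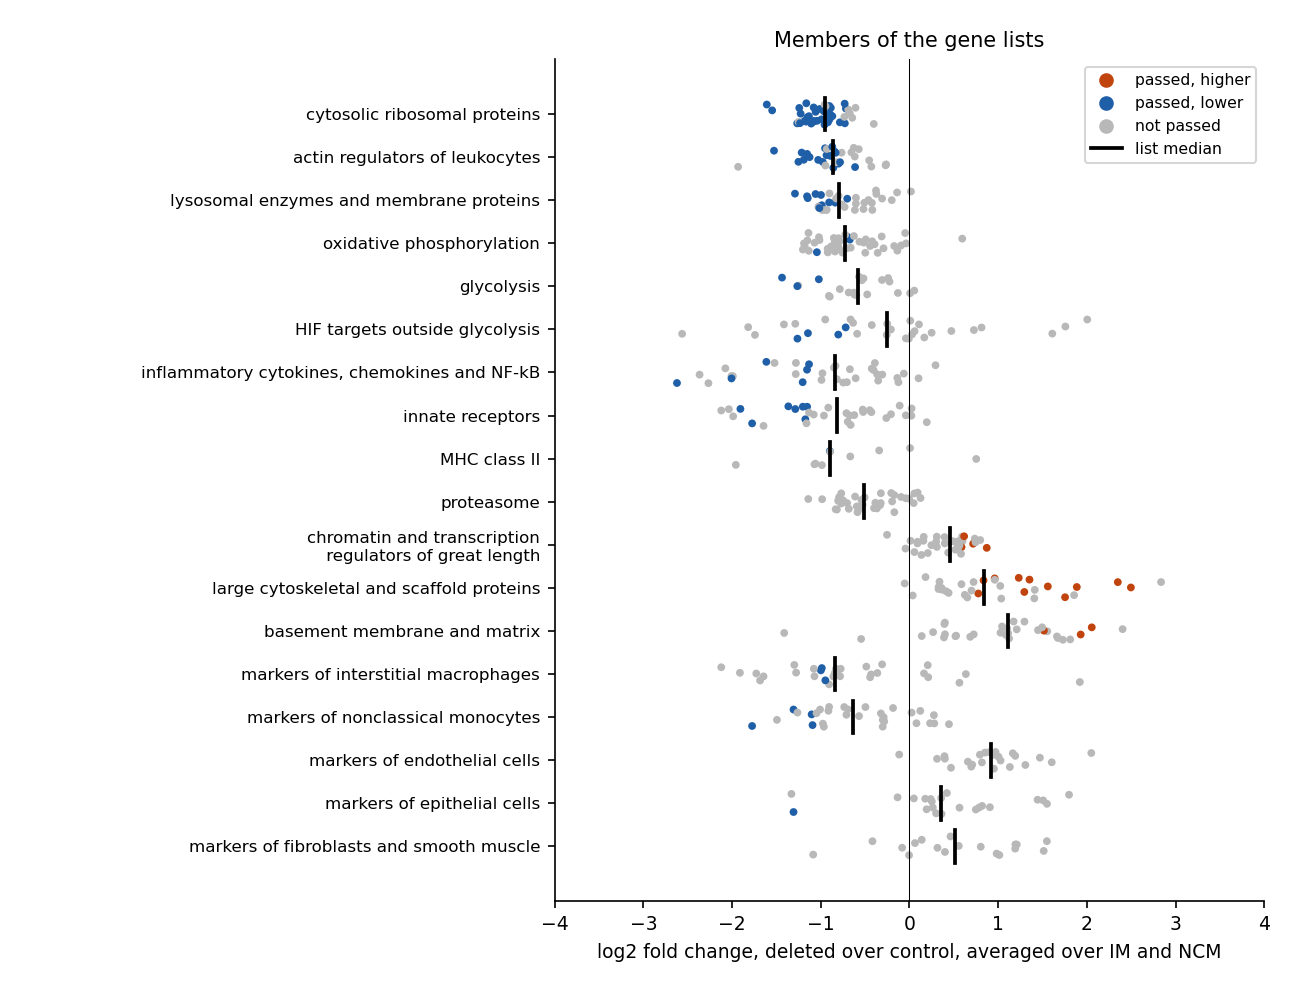
Each point is a measured member of a gene list at its averaged log2 fold change, red or blue where it passed the averaged test and grey where it did not, with the list's median as a black bar. Of the 44 ribosomal protein genes 35 are blue and all lie left of 0, 32 of the 33 large cytoskeletal genes lie right of it, and 1 member of all the lists shown is outside the drawn range.

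The summed markers of each sorted cell type lay below their control range in its deleted libraries. The 30 markers of interstitial macrophages summed to between 25769 and 27310.5 CPM in IM control and between 17327 and 20248 CPM in IM deleted, and the 30 markers of nonclassical monocytes to between 15093 and 24696 CPM in NCM control and between 6151 and 14229 CPM in NCM deleted. Of the macrophage markers 3 fell on average, and Emr1 (F4/80) and Cd68 were shared. Of the monocyte markers 4 fell on average, and Fcgr4, Itgax and Napsa were shared. Other markers went the other way, as the averaged effect was positive for 6 of the 30 macrophage and 7 of the 30 monocyte markers. The macrophage marker Mrc1 was at 1789.75, 1915.5 and 2118 CPM in IM control and 2494, 2089 and 1434 CPM in IM deleted, which overlapped. Emr1 was at 958, 910.3 and 1007 CPM in IM control, 475, 488 and 588 CPM in IM deleted, 333, 231 and 209 CPM in NCM control and 145, 169.6 and 70.6 CPM in NCM deleted. Its groups were separate, and the change was -0.95 ± 0.21 (adjusted p = 0.0254, 0.0374 with the covariate and 0.0873 without IM649). The macrophage count was 0 without any 1 IM control library, IM649, IM650 or NCM657, 1 without IM661 or NCM659, 8 without NCM648, 6 without NCM649 and 10 without NCM661. The monocyte count was 0 without IM650, 2 without IM660 or IM649, and 7 without IM661 or NCM650.

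Of the markers of other cells, 1 of 16 classical monocyte markers (Ccl9), 1 of 15 alveolar macrophage markers (Itgax) and 1 of 22 epithelial markers (Napsa) fell, and each of these genes is also on another list or expressed by the sorted cells. No marker of dendritic cells (median -0.31), T and NK cells (0.02), B cells (0.03), neutrophils (-0.54), fibroblasts and smooth muscle (0.51) or erythroid cells and platelets (0.20) passed in edgeR, and none of 5 sex-linked genes did (median 0.39). At an unadjusted p under 0.05 these 7 lists had 9 higher and 3 lower members. Cd3e and S100a8, which define T cells and neutrophils, were at or below 4.97 CPM in every library. Sftpc, an epithelial surfactant gene, was between 73.3 and 952 CPM, with overlap in both cell types. The part of these cells in the shared changes was not tested.

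The shared genes differed in gene span, the distance from the first to the last base of a gene in GENCODE M21. The median span was 176339 bp for the shared higher genes (53 of 56 with a value), 6103 bp for the shared lower genes (193 of 194) and 23445 bp for all genes tested (13764 with a value). Spans over 100 kb were held by 34 of the 53 shared higher genes (64.2%), 5 of the 193 shared lower genes (2.59%) and 13.4% of all genes. Spans under 10 kb were held by 4 (7.55%), 116 (60.1%) and 25.8%. In the shortest decile of genes by span the median averaged effect was -0.32, with 60 shared lower and 0 shared higher genes, and in the longest decile it was 0.53, with 2 and 30. The medians rose with span in IM from -0.28 to 0.61 and in NCM from -0.49 to 0.33. The summed exon length showed the same order, with medians of -0.31 in the shortest and 0.36 in the longest decile. These are descriptions across genes, which are not independent replicates.

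**Figure D4:**
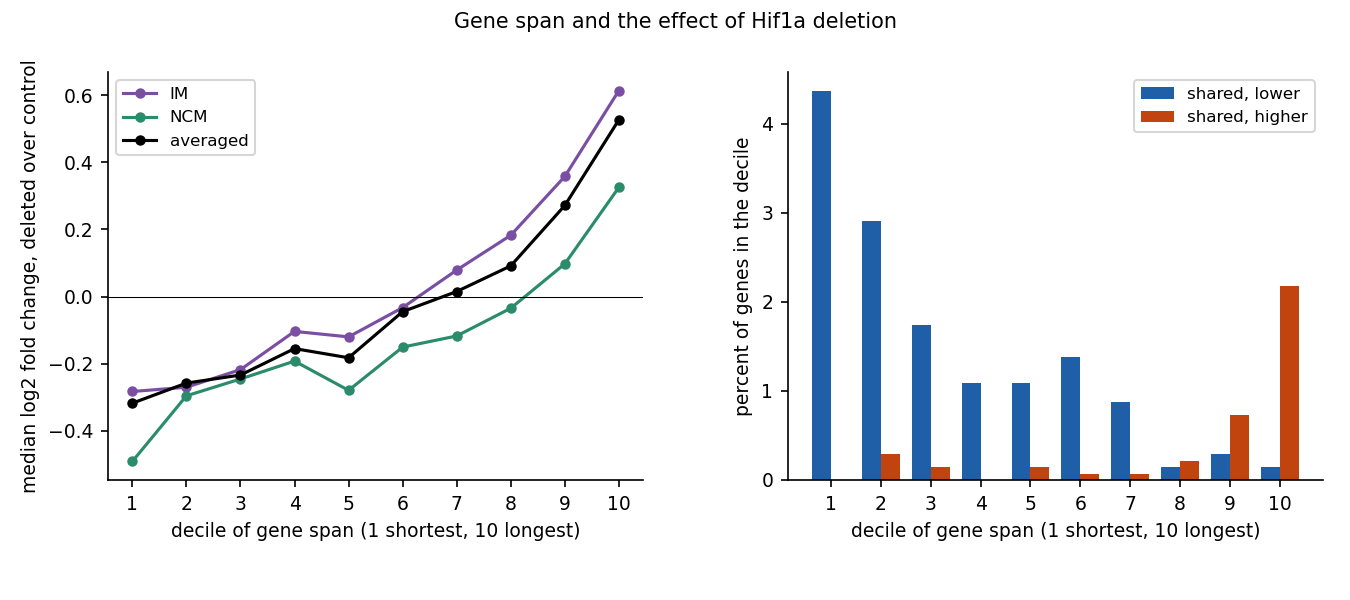
Left, median log2 fold change of deleted over control in deciles of genes ordered by gene span, in IM, in NCM and averaged. Right, percent of genes in each decile that were shared lower (blue) or shared higher (red), at 4.36% lower in the shortest and 2.18% higher in the longest decile.

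The level of a gene also differed between the sets. Of the 194 shared lower genes 121 were in the highest decile of mean log2 CPM and 0 in the lowest 5 deciles, and of the shared higher genes 16 were in the highest decile. The power to call a 2-fold change is larger for genes with more counts, so the absence of low genes from the lower set does not show that they did not change.

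The shared changes were compared, library by library, with the share of reads in no annotated exon. The median of the 194 shared lower genes relative to the control mean of the same cell type was -0.98, -1.12 and -0.69 on the log2 scale in IM649, IM650 and IM661, and -1.11, -0.92 and -1.01 in NCM649, NCM650 and NCM661. These medians describe the genes that were chosen on these values. NCM661 had a smaller share of such reads (55.1%) than each NCM control library (58.1 to 66.8%). For the 44 ribosomal protein genes the median was -1.13, -0.87 and -0.82 in NCM649, NCM650 and NCM661, so it was closest to the controls in NCM661. The part of the read share in these shifts was not tested. In IM the share and the genotype moved together without overlap, so they cannot be told apart there. With the share as a covariate the shared genes had a median of 1.36 for the higher and -0.85 for the lower set while the median of all genes was 0.23, and 3 higher and 9 lower ones passed.

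**Figure D5:**
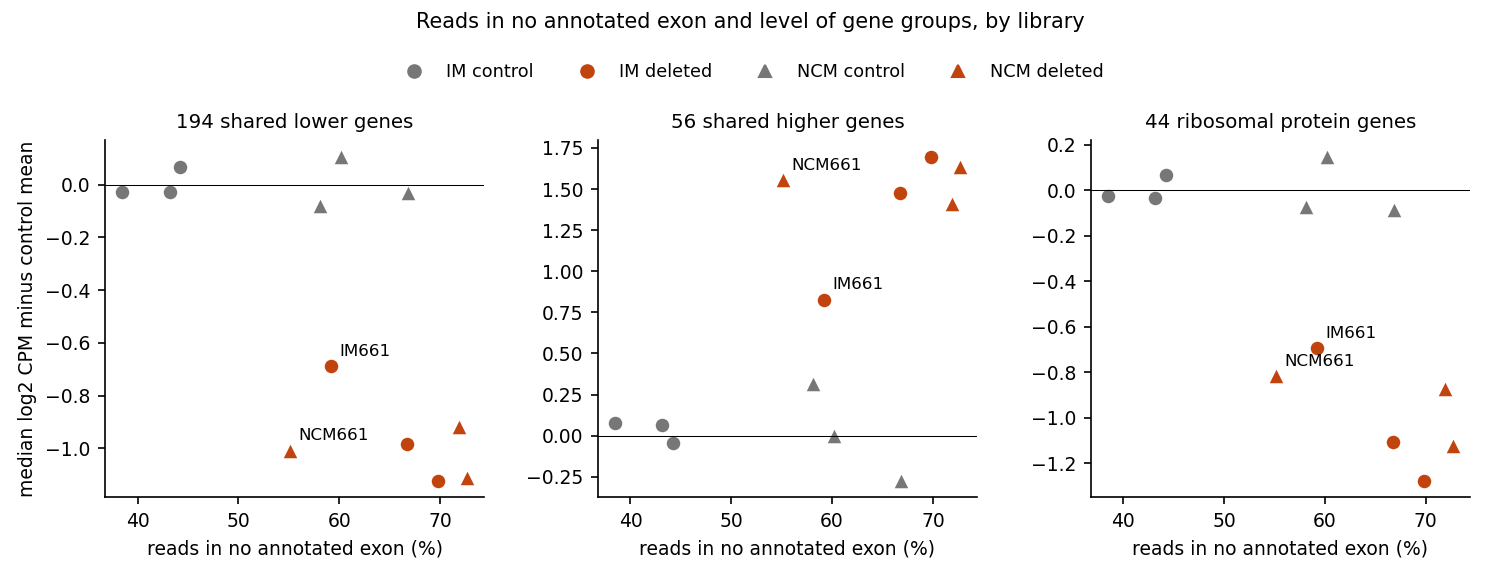
Each point is a library, with its share of reads in no annotated exon (horizontal axis, percent) and the median log2 CPM of a gene group relative to the control mean of its cell type (vertical axis). NCM661, at 55.1%, lies left of the NCM control libraries (grey triangles) and has the smallest ribosomal shift of the NCM deleted libraries (-0.82), while the IM deleted libraries (red circles) lie to the right of all IM controls.

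Sequencing lanes held both genotypes, but unevenly, with IM in lanes 5 and 7 and NCM in lanes 6 and 8. Lanes 5 and 6 held mostly control libraries, with a single deleted library each (IM650 and NCM650). Lanes 7 and 8 held mostly deleted libraries, with a single control library each (IM648 and NCM648). Within lanes 5 and 6 the median change was 1.39 for the shared higher and -1.06 for the shared lower genes, and within lanes 7 and 8 it was 1.60 and -0.93. All 250 genes had the same direction in both, but they were chosen for their sign in these same libraries, which largely fixes that agreement. Lanes 5 and 6 alone gave 405 higher and 1009 lower calls of the averaged test, and lanes 7 and 8 alone gave 0 and 0.

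A further 118 genes passed the averaged test without being shared. Of the 66 higher ones 26 missed an unadjusted p of 0.05 in IM and 40 in NCM, and of the 52 lower ones 47 missed it in IM and 5 in NCM. The effect had opposite signs in 2 higher genes, among them Tbrg3, and in 1 lower gene, Pstpip1, a regulator of the actin cytoskeleton. Pstpip1 was at 42.4, 29.4 and 31.3 CPM in IM control, 23.9, 32.8 and 51.0 CPM in IM deleted, 75.2, 45.7 and 46.6 CPM in NCM control and 8.08, 9.99 and 12.6 CPM in NCM deleted. The IM groups overlapped and the NCM groups did not, with effects of 0.06 ± 0.42 and -2.44 ± 0.44. The test of the difference for Pstpip1 had an adjusted p of 0.319.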

How the data were processed

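RNA of about 250 sorted cells per library was sequenced with a stranded total RNA kit, per the labels' protocols. Raw read counts per gene were deposited by the authors, 1 column per library. Per the submitters' processing notes the tools included cutadapt 1.12, TopHat2 2.1.1 and HTSeq 0.6.0 with GRCm38. Settings, annotation and use of strand: not given in the sources used here. All 5 summary rows were left out of library sizes and tests.

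Counts were filtered with filterByExpr (minimum count 10), scaled with TMM and fitted with edgeR 4.0.16 (robust quasi-likelihood, R 4.3.3) to 4 group means, with Benjamini-Hochberg adjustment over 14254 genes. The genotype effect was tested in IM, in NCM, averaged and as a difference. Alternatives used DESeq2 1.42.0, limma 3.58.1 (voom), other filters, covariates and sets of libraries. The code was checked on simulated data. Adjusted p-values in the report are edgeR's unless another tool is named, and ± after a log2 fold change is its SE.

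Members and gene lists were chosen with earlier results of these data known. Named genes are the 12 with the largest averaged fold change in each direction among shared genes with mean log2 CPM of at least 4 and no overlap in either cell type, up to 4 members per list by smallest p, Hif1a, Cx3cr1, and up to 5 averaged calls of opposite sign; systematic names were left out. Spans are from GENCODE M21 and promoters from RefSeq (GRCm38.p6); of 26608 symbols 24482 had a gene model and 17978 a promoter. Plots used matplotlib 3.10.9.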

Additional observations from a re-analysis of the deposited data

How the results depend on the processing

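Results are given in the order averaged higher, averaged lower, shared higher, shared lower, difference, IM and NCM, which were 122, 246, 56, 194, 0, 41 and 60. DESeq2's size factors in edgeR gave 165, 181, 84, 148, 0, 41 and 59. The DESeq2 test gave 699, 439, 190, 216, 62, 373 and 953. limma voom gave 169, 347, 63, 254, 2, 180 and 195. With the label number as a random replicate block in limma voom the counts were 175, 356, 64, 260, 2, 181 and 196. Correlations of deviations between libraries with the same number were 0.0205, 0.0809, 0.014, -0.0466 and -0.0654. Some of them were above the highest correlation with another number and some were below it. With 3 libraries per group these values cannot decide whether the numbers pair the libraries. The numbers are nested in genotype, so a fixed block could not be fitted. No filter gave 178, 236, 75, 190, 0, 77 and 153, and a CPM of at least 5 in at least 6 libraries gave 201, 215, 101, 163, 0, 54 and 12. The additive model gave 51 and 168 averaged calls. The covariate for reads in no annotated exon gave 4, 27, 4, 26, 0, 0 and 351, and lane as a covariate gave 23, 75, 18, 73, 0, 0 and 3. Lanes 5 and 6 alone gave 405, 1009, 202, 417, 87, 127 and 766, and lanes 7 and 8 alone gave 0, 0, 0, 0, 0, 0 and 25. The 5 numbers with both cell types gave 3, 4, 3, 4, 0, 0 and 2. The conjunction rule called 0 and 0 shared genes, and requiring each cell type's own adjusted p called 0 and 2. Leaving out 1 library, or 1 number with both its libraries, gave ranges of 6 to 343, 31 to 701, 5 to 200, 27 to 308, 0 to 34, 0 to 280 and 2 to 570. Fits without a library or lane have fewer samples; the cause of the other shifts was not tested. Of 75 named genes past the averaged test, 33 passed in each of the 12 fits without 1 library, and 0 turned direction in any fit. The named genes were chosen on their values in these same libraries, which largely fixes their direction. With 3 libraries per group the number of libraries limits precision, and changes in genes of low count may be missed.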
